A study of Mus musculus with 6 samples.

Results

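The GABA-A receptor subunit genes described here are 7 rows of an expression table of 30707 mouse genes, chosen by symbol: Gabra2, Gabra3, Gabra4, Gabra5, Gabrb1, Gabrb2 and Gabrd. The table holds FPKM, the number of sequenced fragments per kilobase of exon scaled to the size of the library, for 6 samples of mouse hippocampus. In 3 of them the tissue had been infected with a virus that knocks down SFRS8, and in the other 3 with a control virus. SFRS8 is the older name of Sfswap, a regulator of pre-mRNA splicing, and the study's title places it in memory and in the splicing of synaptic genes. Both groups carry an infection, and the virus is the difference that the labels name. The sources used here do not state strain, age, sex, the kind of virus, the cells it enters or the time after infection, nor whether each library came from its own animal.

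GABA-A receptors are pentameric chloride channels that open when GABA binds, and they carry most fast inhibition in the brain. Receptors with alpha-2 or alpha-3 subunits lie mainly at synapses and answer brief pulses of GABA. Receptors with delta, which pairs mostly with alpha-4 in the forebrain, and many receptors with alpha-5 lie outside synapses, where low ambient GABA opens them and gives a steady, tonic current. Beta subunits enter receptors of either kind and form the GABA binding site together with alpha. In the hippocampus the delta subunit is known from dentate granule cells, alpha-5 from pyramidal cells, and delta with alpha-4 also from the thalamus next to it.

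The targeted gene was lower in every library labelled knockdown. Sfswap had 9.79, 11.3 and 9.58 FPKM in knockdown samples 1 to 3, against 16.7, 18.5 and 19.2 FPKM in control samples 1 to 3, and was called lower (log2 fold change -0.77, adjusted p = 0.0432 in limma). It was lower in all 17 alternatives to the fit, at adjusted p-values of 0.0238 to 0.148, and passed the threshold in 6. Of the hippocampal markers checked, all 15 dentate granule cell, 11 CA1 and 12 CA3 or mossy cell markers averaged at least 1 FPKM. So did 15 of 16 thalamus markers and 9 of 12 striatum markers, so this level does not tell the regions apart. The libraries differed in choroid plexus, a tissue that borders the hippocampus, whose 12 markers summed to 5442, 5135 and 1483 FPKM in knockdown samples 1 to 3, against 103, 128 and 3587 FPKM in control samples 1 to 3, with 12 positive log2 fold changes and 0 called. Libraries held 16622948 to 18097344 reads, as recovered from the steps between low FPKM values, so that on a 1 kb gene each read added 0.0553 to 0.0602 FPKM. Each subunit gene was read at between 374 and 3649 reads per sample, far above the floor of 3 reads that a value of 0 allows.

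Of the 7 subunit genes none passed the test across all genes. All 7 averaged at least 1 FPKM and were tested, as were 14012 genes in all, with limma on log2(FPKM + 1) and a Benjamini-Hochberg adjusted p under 0.05 as the threshold. The count was 0 higher and 0 lower of 7, where 1.43% of all genes tested were called (1.2% higher and 0.228% lower). At an unadjusted p under 0.05 there was 1 subunit gene, Gabrd, where 23.7% of all genes stood, and limma's voom on the recovered reads also called 0 of the 7, where it called 4.84% of its genes (4.06% higher and 0.782% lower). Groups did not overlap for 1 of the 7, again Gabrd, where 29.9% of all genes tested did not overlap (18% higher and 11.8% lower). The log2 fold changes were positive for 4 and negative for 3, with a median of 0.10, beside a median of 0.02 over all genes tested. In bulk tissue, fewer cells of a type and less RNA per cell cannot be told apart.

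**Figure D1:**
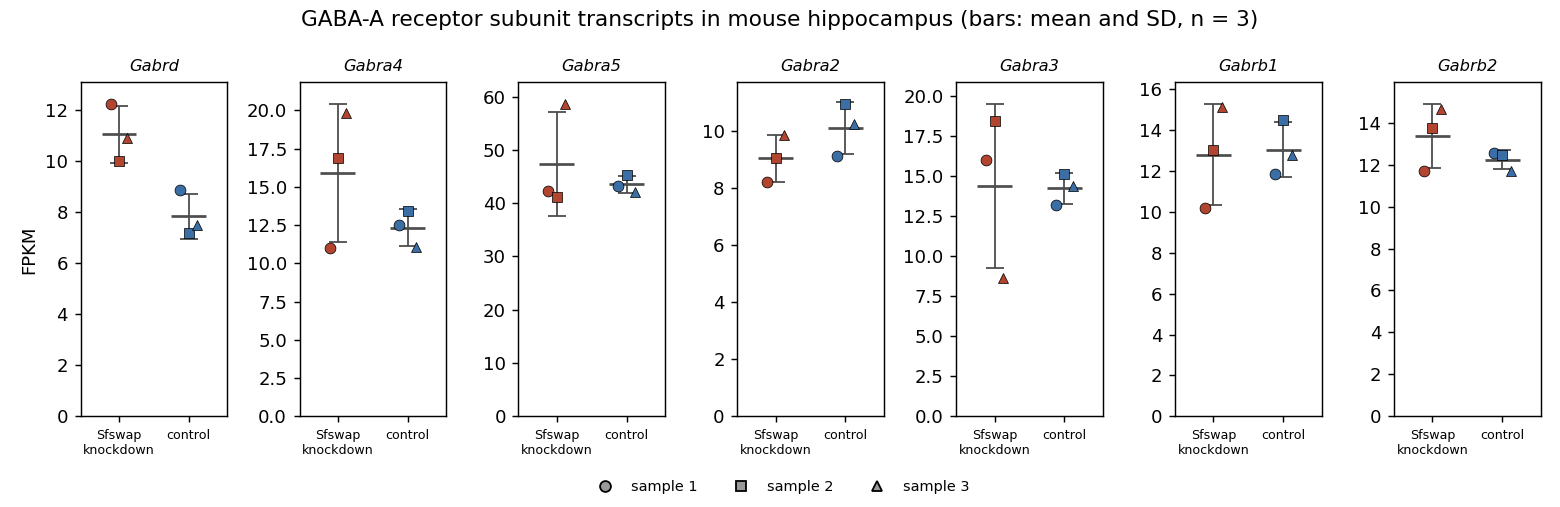
FPKM of each subunit gene (vertical axes start at 0 and differ between panels) in the knockdown samples (left, red) and the control samples (right, blue), 1 symbol per sample, with the mean and SD of 3 samples. For Gabrd all 3 knockdown samples lie above all 3 control samples. For the other 6 genes the groups overlap, and in Gabra3 and Gabra4 the knockdown samples lie far apart.

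The order of levels by FPKM, which divides by exon length, had Gabra5 on top. This order depends on the length used, which takes in all annotated exons of a gene. Gabrb1, with 13838 bases of exon against 2974 for Gabra5, had more reads than Gabra5 in each of the 6 samples. Gabra5 averaged 45.4 FPKM over the 6 samples, and its lowest value of 41.2 FPKM lay above every value of the other subunit genes, the next being Gabra3. Gabra3, Gabra4, Gabrb1 and Gabrb2 followed at means of 14.3, 14.1, 12.9 and 12.8 FPKM, and the ranges of neighbours in this order overlapped. Gabrb2 was above Gabra2 in each of the 6 samples, with ranges that did not overlap. Gabra2 and Gabrd came last at means of 9.56 and 9.45 FPKM, with overlapping ranges, and their order differed by group: Gabrd was above Gabra2 in all 3 knockdown samples and below it in all 3 control samples.

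Gabrd, which encodes the delta subunit of extrasynaptic receptors, had the largest log2 fold change among the 7 genes. It had 12.2, 10.0 and 10.9 FPKM in knockdown samples 1 to 3, against 8.86, 7.19 and 7.49 FPKM in control samples 1 to 3. The lowest knockdown sample was above the highest control sample. Behind them were 624, 479 and 547 reads in knockdown samples 1 to 3, against 439, 374 and 387 reads in control samples 1 to 3, in each sample the fewest of the 7 genes. The means were 11.1 ± 1.12 FPKM in knockdown samples and 7.85 ± 0.889 FPKM in control samples (SD, n = 3 in each group), a ratio of 1.41. On the log2 scale the fold change was 0.45 (SE 0.11, 95% interval 0.20 to 0.70), with an adjusted p of 0.0714 in limma, so the gene did not pass. The exact permutation test gave p = 0.1, two-sided, the smallest that 3 samples against 3 can give. Of all genes tested, 89.9% had a lower log2 fold change than Gabrd. The direction was kept in all 17 alternatives to the fit, with log2 fold changes of 0.38 to 0.53 and adjusted p-values of 0.0578 to 0.206, none of them under the threshold. Gabrd (ENSMUSG00000029054) lies on mm10 chromosome 4 at 155384980 to 155398112, minus strand, and no other gene of GENCODE M21 overlaps it.

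**Figure D2:**
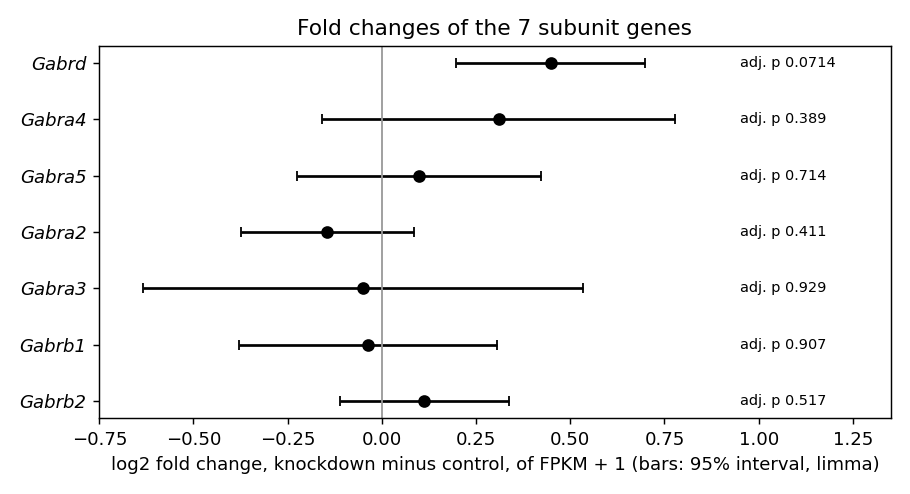
Log2 fold change of each subunit gene, knockdown minus control, as log2(FPKM + 1), with the 95% interval and the adjusted p from limma beside it. The interval of Gabrd, 0.20 to 0.70, lies above 0 but its adjusted p is 0.0714, and the intervals of the other 6 genes include 0.

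Gabra4, the alpha subunit that pairs with delta in the forebrain, did not separate the groups. It had 11.0, 16.9 and 19.9 FPKM in knockdown samples 1 to 3, against 12.5, 13.5 and 11.1 FPKM in control samples 1 to 3. Knockdown samples 2 and 3 were above every control sample, and knockdown sample 1 was just below the lowest control sample. The means were 15.9 ± 4.50 FPKM in knockdown samples and 12.3 ± 1.20 FPKM in control samples (SD, n = 3 each), a ratio of 1.29. In limma the log2 fold change was 0.31 (SE 0.20, 95% interval -0.16 to 0.78, adjusted p = 0.389), which ran from 0.14 without knockdown sample 3 (adjusted p = 0.691) to 0.54 without knockdown sample 1 (adjusted p = 0.0966). The ratio of Gabrd to Gabra4 FPKM was 1.11, 0.594 and 0.550 in knockdown samples 1 to 3, against 0.710, 0.534 and 0.677 in control samples 1 to 3. So the highest ratio was that of knockdown sample 1, where Gabrd was highest and Gabra4 lowest, and the groups overlapped.

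Gabra4 and Gabrb1 stand head to head in the genome and start close together on opposite strands. On mm10 chromosome 5, Gabra4 (ENSMUSG00000029211) spans 71569749 to 71658308 on the minus strand and Gabrb1 (ENSMUSG00000029212) spans 71658113 to 72149037 on the plus strand, so that their ends overlap by 196 bases. Of Gabra4's 6083 bases of exon, 46 lie in exons of Gabrb1 (0.756%). The labels' protocol names no step that keeps the strand, so reads from these bases cannot be assigned to one gene. In RefSeq the start of Gabrb1 is 387 bases from that of Gabra4 and inside Gabra4's first annotated exon. The windows around these starts, 250 bases before and 50 after, are shown because the starts lie close together. The windows themselves do not overlap. They are RefSeq sequences of build GRCm38.p6, each 5′ to 3′ on its gene's own strand, for Gabra4 at chr5:71658259-71658558 (minus strand) and for Gabrb1 at chr5:71657671-71657970 (plus strand), with GC boxes in capitals (GGGCGG or, on the other strand, CCGCCC).
Gabra4: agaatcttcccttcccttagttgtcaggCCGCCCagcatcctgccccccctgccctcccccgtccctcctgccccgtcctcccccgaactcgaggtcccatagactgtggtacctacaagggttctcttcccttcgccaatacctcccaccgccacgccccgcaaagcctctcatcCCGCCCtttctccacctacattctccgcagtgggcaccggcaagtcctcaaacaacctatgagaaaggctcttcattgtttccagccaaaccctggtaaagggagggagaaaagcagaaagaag
Gabrb1: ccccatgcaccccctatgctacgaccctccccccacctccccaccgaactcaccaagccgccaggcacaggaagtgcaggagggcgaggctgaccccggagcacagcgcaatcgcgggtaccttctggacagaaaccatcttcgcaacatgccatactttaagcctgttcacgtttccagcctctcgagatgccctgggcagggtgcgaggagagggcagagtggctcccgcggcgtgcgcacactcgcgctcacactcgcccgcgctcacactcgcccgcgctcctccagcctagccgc
The Gabra4 window holds 2 GC boxes and the Gabrb1 window 0, and 35.7% of 32851 RefSeq windows of the same length hold at least 1. G and C made up 58.7% of the bases in the Gabra4 window and 66.0% in the Gabrb1 window. Neither window holds a TATA box (TATAAA, in 13.6% of windows), a CRE (TGACGTCA, 1.79%) or an EGR site (GCGTGGGCG, 0.612%) on either strand. Among the other members, TATAAA is in the first of 3 windows of Gabrb2, at position -30 from its start, and, read on the strand opposite to the gene, in both of the overlapping windows of Gabra3, at positions -123 and -235 from their starts. A match is a run of letters, not a site of binding, and 6 of the 7 genes had a window in the table.

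Gabrb1, a beta subunit, had values in which the groups overlapped throughout. It had 10.2, 13.0 and 15.1 FPKM in knockdown samples 1 to 3, against 11.8, 14.5 and 12.8 FPKM in control samples 1 to 3. Knockdown sample 1 was the lowest of the 6 and knockdown sample 3 the highest, as for Gabra4 and for Gabrb2. Its log2 fold change was -0.04 (SE 0.14, 95% interval -0.38 to 0.30, adjusted p = 0.907 in limma), and its sign turned in 3 of 17 alternatives. The ratio of Gabra4 to Gabrb1 FPKM was 1.08, 1.30 and 1.31 in knockdown samples 1 to 3, against 1.05, 0.928 and 0.867 in control samples 1 to 3. That ratio was above every control sample in each knockdown sample, by a small margin in knockdown sample 1. It was chosen after its values were seen and is given without a test.

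Gabrb2, a beta subunit of many forebrain receptors, differed little between the groups and varied more within the knockdown group, with a coefficient of variation of 11.4% in knockdown samples and 3.69% in control samples. It had 11.7, 13.7 and 14.7 FPKM in knockdown samples 1 to 3, against 12.5, 12.5 and 11.7 FPKM in control samples 1 to 3. Knockdown samples 2 and 3 were above every control sample and knockdown sample 1 was just below the lowest. Its log2 fold change was 0.11 (SE 0.09, 95% interval -0.11 to 0.34, adjusted p = 0.517 in limma). Gabrb2 (ENSMUSG00000007653) lies on mm10 chromosome 11 at 42419757 to 42629028, plus strand.

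Gabra5, the alpha subunit of tonic receptors on pyramidal cells, was set apart by 1 sample. It had 42.2, 41.2 and 58.6 FPKM in knockdown samples 1 to 3, against 43.2, 45.3 and 42.1 FPKM in control samples 1 to 3. Knockdown sample 3 was above all other samples and knockdown sample 2 below all of them. The means were 47.3 ± 9.76 FPKM in knockdown samples and 43.5 ± 1.60 FPKM in control samples (SD, n = 3 each). Its log2 fold change was 0.10 (SE 0.14, 95% interval -0.22 to 0.42, adjusted p = 0.714 in limma), and without knockdown sample 3 it was -0.06. Gabra5 (ENSMUSG00000055078, mm10 chromosome 7, 57407672 to 57510059, minus strand) shares 148 of its 2974 bases of exon (4.98%) with the opposite-strand gene Gm9962, whose level was 0.405 to 1.21 FPKM over the 6 samples.

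Among the synaptic alphas, Gabra2 had its lower values in the knockdown group. Gabra2, found at synapses and on the axon initial segment of pyramidal cells, had 8.20, 9.03 and 9.85 FPKM in knockdown samples 1 to 3, against 9.12, 10.9 and 10.2 FPKM in control samples 1 to 3. Knockdown samples 1 and 2 were below every control sample, and knockdown sample 3 was within the control range. Its log2 fold change was -0.15 (SE 0.10, 95% interval -0.37 to 0.08, adjusted p = 0.411 in limma), negative in all 17 alternatives. As a share of the summed FPKM of the 7 genes, Gabra2 held 7.35%, 7.38% and 7.16% in knockdown samples 1 to 3, against 8.20%, 9.19% and 9.32% in control samples 1 to 3. These shares did not overlap between the groups, were 1 of 7 such shares looked at, and carry no test. The summed FPKM itself was 112, 122 and 138 in knockdown samples 1 to 3, against 111, 119 and 110 in control samples 1 to 3. Gabra2 (ENSMUSG00000000560) is on mm10 chromosome 5 at 70957597 to 71095849, minus strand, in the same cluster of subunit genes as Gabra4 and Gabrb1.

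Gabra3, the other synaptic alpha, was scattered within the knockdown group. It had 16.0, 18.4 and 8.61 FPKM in knockdown samples 1 to 3, against 13.2, 15.1 and 14.4 FPKM in control samples 1 to 3. Knockdown samples 1 and 2 were the highest of the 6 and knockdown sample 3 the lowest. The knockdown sample 3 value rests on 589 reads, against 1112 and 1203 reads in knockdown samples 1 and 2 and 893 to 1071 reads in the control samples. The coefficient of variation was 35.7% in the knockdown samples and 6.69% in the control samples. The log2 fold change was -0.05 (SE 0.25, 95% interval -0.63 to 0.54, adjusted p = 0.929 in limma), and without knockdown sample 3 it was 0.26 with an adjusted p of 0.197. The ratio of Gabra3 to Gabra2 FPKM was 1.95, 2.04 and 0.874 in knockdown samples 1 to 3, against 1.45, 1.38 and 1.41 in control samples 1 to 3. So knockdown sample 3 was the only sample of the 6 in which Gabra2 was above Gabra3. Gabra3 (ENSMUSG00000031343) lies on mm10 chromosome X at 72432681 to 72656848, minus strand.

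**Figure D3:**
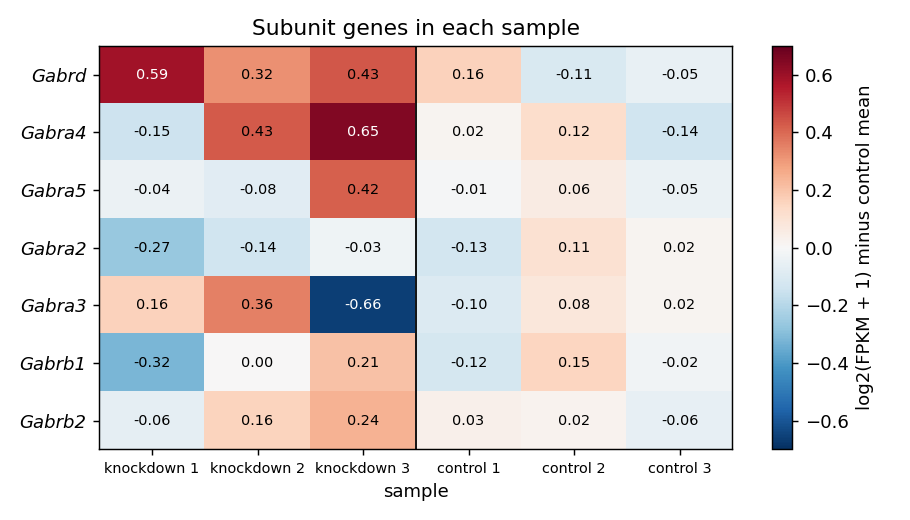
Difference of each sample from the control mean, in log2(FPKM + 1), for each subunit gene (rows) and sample (columns, knockdown left of the line). Gabrd is positive in all 3 knockdown samples (0.59, 0.32 and 0.43), whereas knockdown sample 3 holds both the most negative value, -0.66 for Gabra3, and the most positive, 0.65 for Gabra4.

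Extrasynaptic subunits were set against synaptic alphas within each sample. The mean log2(FPKM + 1) of Gabra4, Gabra5 and Gabrd minus that of Gabra2 and Gabra3 was 0.60, 0.54 and 1.27 in knockdown samples 1 to 3, against 0.59, 0.35 and 0.32 in control samples 1 to 3. The groups overlapped, since knockdown sample 2 was below control sample 1. The difference averaged 0.80 ± 0.40 in knockdown samples and 0.42 ± 0.15 in control samples (SD, n = 3 each), 0.38 apart. Without knockdown sample 3, where Gabra3 was low and Gabra4 and Gabra5 were high, the groups were 0.15 apart. With Gabrd left out of the extrasynaptic side the values were 0.87, 0.98 and 1.79 in knockdown samples 1 to 3, against 1.03, 0.90 and 0.80 in control samples 1 to 3, and overlapped as well. No p is given for these sums over chosen genes.

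A further 12 rows of the table are GABA-A receptor subunit genes outside the 7. Of these, 5 averaged at least 1 FPKM and were tested, 0 were called in either direction, and the ratio of knockdown to control means ran from 0.789 to 1.14 (adjusted p = 0.130 to 0.837 in limma). The other 7 did not exceed 0.915 FPKM in any sample.

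Transcripts with a pattern like that of Gabrd and Gabra4 were sought by the root mean square difference between their deviations from the mean log2(FPKM + 1) over the 6 samples. The 3 closest to Gabrd were Ppp1r14a, an inhibitor of myosin phosphatase, at 0.046, Tgfa, a ligand of the EGF receptor, at 0.052, and Osmr, the oncostatin M receptor, at 0.052. Ppp1r14a, with 23.3, 21.3 and 21.8 FPKM in knockdown samples 1 to 3 against 17.3, 14.4 and 14.7 FPKM in control samples 1 to 3, missed the threshold with an adjusted p of 0.05003 in limma. The 3 closest to Gabra4 were Kcnd3os at 0.056, Prss23, a serine protease, at 0.088 and Trps1, a zinc finger transcription factor, at 0.094. All of the Gabra4 neighbours were lower in level than Gabra4, at 0.740 to 3.92 FPKM. These are descriptions over 6 samples, searched for among all genes tested.

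The genes that bring GABA-A receptors to the membrane and hold them there had mostly lower values. Of 23 such genes tested, 0 were called higher and 0 lower by limma, 17 had negative and 6 positive log2 fold changes, and the median was -0.10. Nsf, an ATPase that aids receptor insertion, had 68.9, 91.3 and 94.9 FPKM in knockdown samples 1 to 3, against 122, 137 and 130 FPKM in control samples 1 to 3. Its groups did not overlap, and its adjusted p was 0.0619 in limma, while voom on the recovered reads called it lower, the only gene of this list it called. Trak2, a kinesin adaptor that binds beta subunits, had 48.1, 46.6 and 72.7 FPKM in knockdown samples 1 to 3, against 36.6, 35.3 and 31.4 FPKM in control samples 1 to 3 (adjusted p = 0.0856 in limma). The groups did not overlap for Trak2, which did not pass. Gphn, which encodes gephyrin, the scaffold of inhibitory synapses, stood at a ratio of 0.928, and Rdx, radixin, which anchors alpha-5 receptors outside synapses, at 1.20, and these were chosen for their role rather than by p.

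On the sending side of the synapse, 8 genes of GABA synthesis, release, uptake and breakdown were tested and 0 were called, with a median log2 fold change of 0.09. Gad1, a GABA-synthesising enzyme, had 33.4, 37.0 and 30.1 FPKM in knockdown samples 1 to 3, against 49.8, 41.9 and 36.5 FPKM in control samples 1 to 3. Its groups overlapped and its adjusted p was 0.180 in limma. Of 9 GABA-B receptor and effector genes 0 were called, with a median of -0.04, and Kcnj3, a subunit of the potassium channels that GABA-B receptors open, stood at a ratio of 0.762 with an adjusted p of 0.166. Of 6 chloride transporters and channels 0 were called, with a median of -0.02. Slc12a2, the chloride importer NKCC1, had 20.2, 25.3 and 13.2 FPKM in knockdown samples 1 to 3, against 11.2, 11.5 and 15.0 FPKM in control samples 1 to 3, and the groups overlapped.

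Markers of other cells and regions differed between the samples in which Gabrd and Gabra4 were high or low. The 16 thalamus markers summed to 90.0, 215 and 171 FPKM in knockdown samples 1 to 3, against 94.5, 86.9 and 74.6 FPKM in control samples 1 to 3. Of the 15 tested, 14 had positive log2 fold changes, 1 was called higher (Ramp3) and 0 lower, the median was 0.94, and none of the 16 was at 0. The place of knockdown sample 1 in this sum rests on 1 marker, Calb2, which the interneuron and the CA3 and mossy cell lists also hold, and which had 7.15, 41.7 and 29.7 FPKM in knockdown samples 1 to 3, against 25.8, 23.3 and 20.6 FPKM in control samples 1 to 3. Without Calb2, left out after its values were seen, the sum was 82.8, 173 and 141 FPKM in knockdown samples 1 to 3, against 68.8, 63.6 and 54.1 FPKM in control samples 1 to 3, so that each knockdown sample was above every control sample. Of the 15 tested markers, 9, 14 and 15 were above every control sample in knockdown samples 1 to 3. Gabra4 was high in knockdown samples 2 and 3, where these markers were highest, while Gabrd was highest in knockdown sample 1. The part of thalamus markers in the values of both genes was not tested.

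The 12 striatum markers summed to 105, 70.4 and 70.3 FPKM in knockdown samples 1 to 3, against 50.8, 46.8 and 55.2 FPKM in control samples 1 to 3. Of 9 tested, 7 had positive log2 fold changes, 1 was called higher (Drd1) and 0 lower. This sum was above every control sample in each knockdown sample, but in knockdown sample 3 that rests on Penk. Without Penk, again left out after its values were seen, it was 89.3, 58.7 and 43.8 FPKM in knockdown samples 1 to 3, against 38.9, 39.5 and 48.1 FPKM in control samples 1 to 3. Of the 9 tested markers, 8, 5 and 2 were above every control sample in knockdown samples 1 to 3. The part of these markers in the Gabrd values was not tested. The 15 dentate granule cell markers summed to 110, 126 and 176 FPKM in knockdown samples 1 to 3, against 170, 209 and 200 FPKM in control samples 1 to 3. Of these 12 had negative log2 fold changes, 1 was called lower (Lct) and 0 higher, with a median of -0.48. Knockdown samples 1 and 2 were below every control sample in this sum, and knockdown sample 3 was within the control range, though below every control sample without the marker C1ql2. These are markers of the cells in which Gabrd is known from the hippocampus, and their part in the Gabrd values was not tested.

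**Figure D4:**
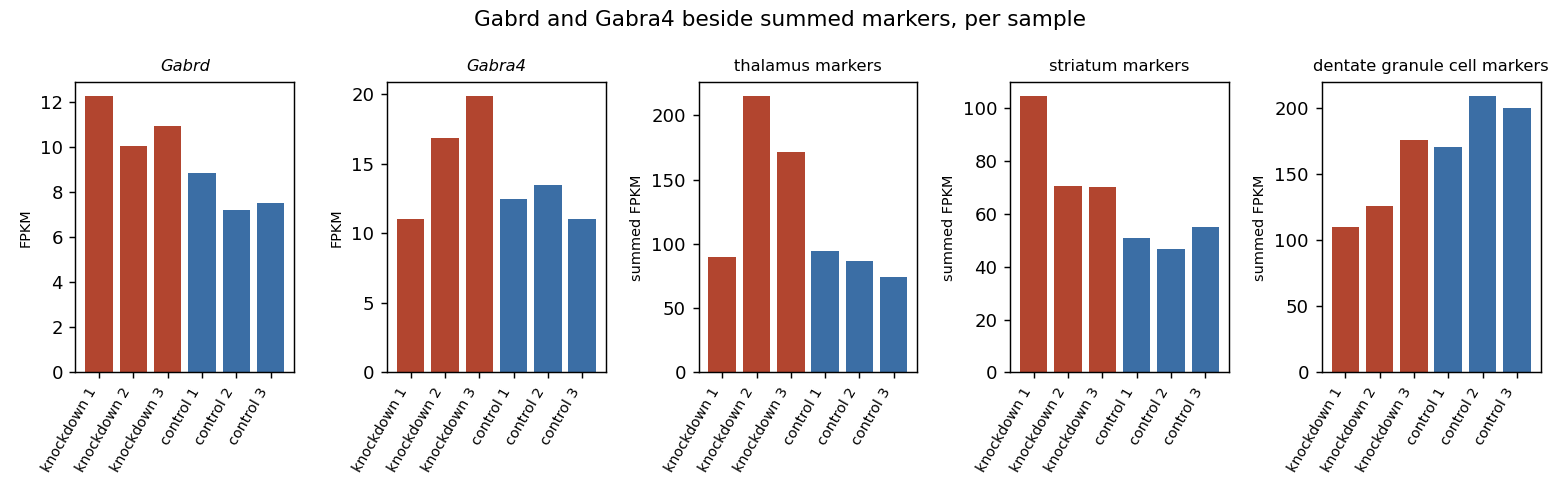
FPKM of Gabrd and Gabra4 and the summed FPKM of the thalamus, striatum and dentate granule cell markers in each sample (knockdown samples in red, left, control samples in blue, right). Knockdown sample 1 has the highest Gabrd, 12.2 FPKM, beside a thalamus sum of 90.0 FPKM that lies within the control range with Calb2 and, at 82.8 FPKM, above it without Calb2. Gabra4 is high in the 2 knockdown samples with thalamus sums of 215 and 171 FPKM.

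Further marker lists are given beside the spread of Gabra3 and Gabra5. CA1 pyramidal cell markers summed to 275, 199 and 153 FPKM in knockdown samples 1 to 3, against 211, 215 and 241 FPKM in control samples 1 to 3, so that knockdown sample 3, highest in Gabra5 and lowest in Gabra3, was lowest in this sum. CA3 and mossy cell markers summed to 166, 229 and 251 FPKM in knockdown samples 1 to 3. Their sums in control samples 1 to 3 were 284, 267 and 262 FPKM. Of the 12 tested, 9 had negative log2 fold changes, 1 was called lower (Cdh24) and 0 higher. Dkk3 was left out after these values were seen. The sum was then 67.6, 151 and 167 FPKM in knockdown samples 1 to 3. In control samples 1 to 3 it was 143, 146 and 141 FPKM. GABAergic interneuron markers had a median log2 fold change of -0.14 over 15 genes, 12 negative and 3 positive, with 0 called. They summed to 689, 600 and 696 FPKM in knockdown samples 1 to 3. The control sums were 788, 756 and 783 FPKM. Without Sst, left out after its values were seen, knockdown sample 3 was highest, at 546 FPKM against 432 to 474 FPKM in control samples. Npy, named for its spread, had 66.3, 49.2 and 244 FPKM in knockdown samples 1 to 3. Its control values were 58.1, 53.7 and 61.9 FPKM. Microglia markers summed to 1040, 679 and 642 FPKM in knockdown samples 1 to 3, against 497, 556 and 385 FPKM in control samples 1 to 3. The median log2 fold change was 0.68, all 12 were positive and 0 were called. The groups did not overlap for 11 of the 12, where 29.9% of all genes tested did not overlap (18% higher and 11.8% lower). Astrocyte markers had a median of 0.08, with 9 positive and 3 negative log2 fold changes. Of the 12, 2 were called higher (Aqp4 and Gja1) and 0 lower, where 1.2% and 0.228% of all genes tested were called. The groups did not overlap for 4 (29.9% over all genes tested): these 2, and Ntsr2 and Aldoc, which were lower. Ntsr2 and Aldoc stood at ratios of 0.702 and 0.740 (adjusted p = 0.0677 and 0.143 in limma), and were named for not overlapping. Gfap, named for its spread, had 200, 212 and 454 FPKM in knockdown samples 1 to 3. Its control values were 322, 257 and 244 FPKM. The part of these markers in the subunit values was not tested.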

How the data were processed

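The deposited table gives FPKM per gene for 6 poly(A)-enriched libraries, and the genome build was mm10 per the submitters' processing notes. The sources used here name no aligner, counting program or annotation. Columns were matched to samples by the labels. Reads were recovered from the FPKM by multiplying with the exon length in GENCODE M21 (30641 of 30707 identifiers matched), and 28224 genes had all 6 values within 0.01 of a whole read. Genes averaging at least 1 FPKM were tested with limma 3.58.1 in R 4.3.3 on log2(FPKM + 1), with a variance trend, two-sided, knockdown minus control. The pseudocount of 1 understates the change of low genes. Since the labels do not say that libraries came from separate animals, p-values reflect only sample-to-sample spread, possibly technical. The members and lists were chosen with earlier results of these data known. Genes outside the 7 were named by smallest p in a list or by likeness of pattern, except where said, and not all were printed. Alternatives were other pseudocounts, filters, scalings, variance models and blocks, voom on the recovered reads, and each sample left out in turn. The procedure was also run on simulated data, with noise drawn for each gene on its own. That simulation left out differences shared by many genes, such as those in choroid plexus markers, and cannot show how the fit behaves with them. The read floor covers counting error only.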

Additional observations from a re-analysis of the deposited data

How the results depend on the processing

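With 17 alternatives, 0 of the 7 subunit genes were called higher and 0 lower in each, and 1 to 3 of them had an unadjusted p under 0.05. The sign of the log2 fold change was kept in all 17 by Gabrd, Gabra4, Gabrb2 and Gabra2. It turned for Gabrb1 with sample weights (0.0106) and ran from -0.16 to 0.10 when a sample was left out, and with 1 sample left out Gabra3 ran from -0.25 to 0.26 and Gabra5 from -0.0607 to 0.19. The number of all genes called, 168 higher and 32 lower in limma, was 290 and 64 with a pseudocount of 0.1, 274 and 64 with 0.5, 170 and 65 with a filter at a mean of 5 FPKM, and with voom 498 and 96. It was 0 and 0 with no filter, with each sample scaled to the same FPKM sum, after quantile normalization, with median centring, without the variance trend and with the replicate number as a block, and ran from 0 to 160 higher and 0 to 30 lower with 1 sample left out. In the settings with none called, 1528 to 2938 genes were higher and 686 to 1994 lower at an unadjusted p under 0.05. With the replicate number as a block Gabrd had an adjusted p of 0.0942. Same-numbered samples deviated together at r = 0.05, 0.04 and -0.01 across genes, so the numbers were not taken to pair them. Sfswap kept its direction in all 17 and its call in 6. The precision with 3 samples a group was lowest for Gabra3, whose 95% interval spanned -0.63 to 0.54.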
